A study of Rattus norvegicus with 36 samples.

Results

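Uninjured vocal fold (VF) mucosa harvested as the 60-day control was compared with the uninjured mucosa harvested earlier as the 3-day and 14-day controls. The members were taken from the sample titles: 2 arrays of 60-day control mucosa were set against 6 arrays of earlier control mucosa, 3 at 3 days and 3 at 14 days. These are 8 of the 36 arrays of the study, which holds 23 arrays of mucosa in 6 groups and 13 arrays of cultured vocal fold fibroblasts. The rats were male Fischer 344 animals that entered the study at 120 days of life, so the controls were about 123, 134 and 180 days old at harvest. Control rats had no surgery, and each array carries RNA of the bilateral mucosae of 4 rats combined in 1 pool, so the spread between arrays is a spread between pools. The injured (post-injury, PI) groups had bilateral stripping of the mucosa and were harvested at 3, 14 and 60 days PI, with 5 arrays each. They were fitted in 1 model with the controls and so share the estimate of the spread behind the calls. Comparisons that use them are given after those of the controls. The study's methods describe a different split of the 60-day arrays between injured and control than the titles do, with one more control, and the titles were followed. An array titled 60-day PI could therefore be a control array, which bears on the 2 arrays used here and on the comparisons with 60-day PI mucosa. Age at harvest and the harvest itself cannot be told apart, since each age group was collected at its own time and the time of day is not given in the sources used here.

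The VF mucosa is a stratified epithelium, with ciliated and secretory epithelium and glands beside it, over a lamina propria whose fibroblasts lay down collagen, elastin, proteoglycans and hyaluronan. Type I and type III collagen build the fibrils that carry tensile load. Their chains are made at a high rate while a tissue grows and at a lower rate in adult tissue, where collagen protein turns over slowly. The lamina propria of airway mucosa also houses plasma cells, which secrete immunoglobulin A joined by the J chain for transport across the epithelium.

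Signals are log2 values of the authors' normalisation and spanned 2.724 to 14.743. Pairs of the 8 control arrays correlated across probe sets with r between 0.9858 and 0.9967, and the pair of 60-day controls with r = 0.9937. Markers of stratified epithelium were bright in the tissue (Krt5 between 13.04 and 13.55 in the 8 control arrays), as were those of skeletal muscle (Ckm between 13.75 and 14.43 in the earlier controls), so the pools held muscle as well as mucosa. The 3-day control replicate 2 stood apart in the muscle list, with a median deviation of -0.58 from the mean of the earlier controls, whereas the other 7 control arrays lay between -0.04 and 0.21. The 14-day control replicate 3 deviated from its group together with a 3-day PI and a 60-day PI array (r = 0.605 and 0.451 across genes). In bulk tissue, fewer cells of a type and less RNA per cell cannot be told apart.

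Of 14217 genes, 9 differed between the 60-day and the earlier controls at an adjusted p below 0.05 (limma), which is 0.0633% of the genes tested, and these are the genes described below as called. Type I and type III collagen chains (Col1a1, Col1a2, Col3a1) and the matrix protein gene Ccdc80 fell by 1.49- to 2.03-fold (4 genes, 0.0281%). Pou2af1 and Iglc1, genes of antibody-producing cells, together with Entpd8, Grik2 and Oprpn, rose by 1.88- to 4.72-fold (5 genes, 0.0352%). In either direction 1086 genes (7.64%) had an unadjusted p below 0.05, 730 of them higher (5.13%) and 356 lower (2.5%) at 60 days. Both 60-day arrays lay outside the range of all 6 earlier arrays in 1834 genes (12.9%), above it in 1131 (7.96%) and below it in 703 (4.94%). The median difference over all genes was 0.01 on the log2 scale. The calls rest on few arrays: in a model of the 8 control arrays alone 1 gene was called, Pou2af1, and leaving out a single control array gave between 4 (without 14-day control replicate 3 or 3-day control replicate 3) and 35 calls (without 3-day control replicate 2). A single injured array left out, since these share the estimate of the spread, gave from 5 to 48 calls, the most in the absence of the 60-day PI replicate 4. Without 60-day control replicate 1 there were 8 calls, of which 1 was among the 9, and without 60-day control replicate 2 there were 22, of which 4 were.

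Col1a1, which encodes the alpha 1 chain of type I collagen, showed the largest fall among the called genes. Its signal was 11.67, 11.62 and 11.19 in the 3-day controls, 11.94, 11.56 and 11.38 in the 14-day controls and 10.57 and 10.51 in the 60-day controls. Both 60-day values lay below every earlier value, and 3-day replicate 3 was the lowest of the earlier arrays. The mean went from 11.56 ± 0.25 (SD, n = 6) to 10.54 ± 0.05 (SD, n = 2). The difference was -1.02 ± 0.17 (SE), a 2.03-fold fall (limma, adjusted p = 0.0221, n = 2 and 6). A second probe set of Col1a1 differed by -0.87 (adjusted p = 0.153 over all probe sets, limma).

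Col1a2, which encodes the alpha 2 chain that joins Col1a1 products in the same triple helix, read 13.00, 13.09 and 13.16 at 3 days, 13.15, 13.01 and 12.87 at 14 days and 12.23 and 12.52 at 60 days. The groups did not overlap, and replicate 1 was the lower of the 60-day pair. The fall was 1.59-fold (-0.67 ± 0.12 SE, limma, adjusted p = 0.047, n = 2 and 6), and the second probe set differed by -0.66. The promoter of this gene is shown because it is the called collagen gene for which a promoter window was at hand. The RefSeq sequence of the 250 bases before its start (GRCr8, chr4:33518307-33518556, plus strand) has in capitals a CCAAT box on the minus strand and a TATAAA box on the plus strand.

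Col1a2: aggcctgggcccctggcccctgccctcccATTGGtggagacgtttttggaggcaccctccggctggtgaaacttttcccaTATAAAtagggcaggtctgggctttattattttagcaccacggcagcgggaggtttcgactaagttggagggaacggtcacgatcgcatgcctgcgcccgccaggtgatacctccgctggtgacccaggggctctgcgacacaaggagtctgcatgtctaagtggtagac

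The CCAAT letters lie at -221 to -217 and TATAAA at -170 to -165, counted from the annotated start. Where transcription starts in the mucosa was not tested, so part of the window may itself be transcribed. CCAAT, searched on both strands, occurs in 34.0% of 33469 such RefSeq windows and TATAAA in 12.9%. These matches describe the window and say nothing of a factor bound there.

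Col3a1, which encodes type III collagen, read 13.62, 13.77 and 13.74 at 3 days, 13.66, 13.58 and 13.72 at 14 days and 13.02 and 13.20 at 60 days. The 6 earlier arrays lay close together (SD 0.07), and both 60-day arrays lay below them. The fall was 1.49-fold (-0.57 ± 0.09 SE, limma, adjusted p = 0.00975, n = 2 and 6).

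Ccdc80 encodes a secreted protein that binds to extracellular matrix. It read 11.13, 11.16 and 11.37 at 3 days, 10.98, 11.01 and 11.06 at 14 days and 10.34 and 10.36 at 60 days. The 60-day pair again lay below every earlier array. The fall was 1.71-fold (-0.77 ± 0.13 SE, limma, adjusted p = 0.0221, n = 2 and 6).

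**Figure D1:**
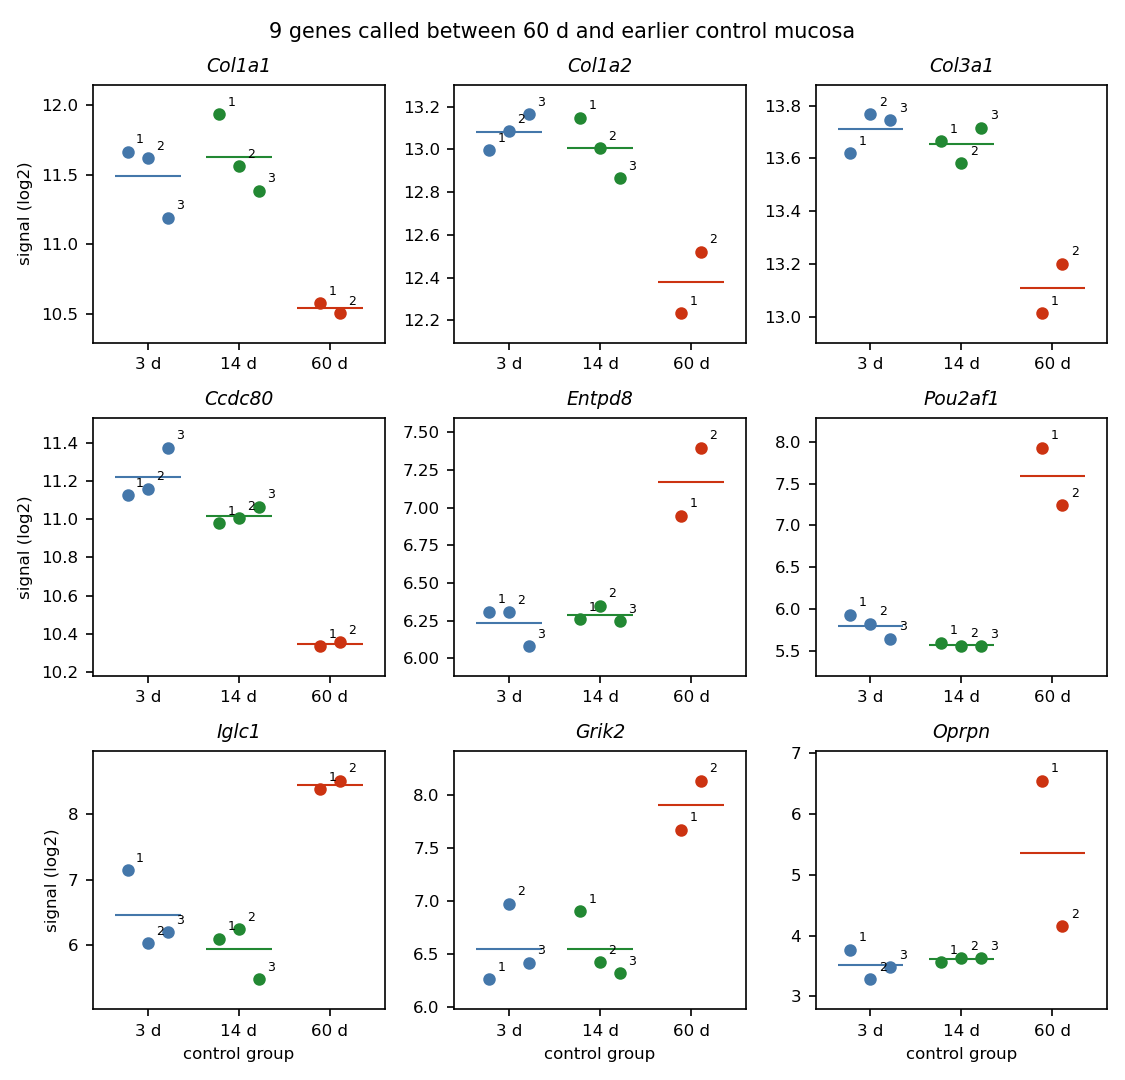
Signal (log2) of the 9 called genes in each control array; the horizontal axis gives the control group, points are arrays labelled with their replicate number and lines are group means. The 3 collagen genes and Ccdc80 are low in both 60-day arrays (Col1a1 at 10.57 and 10.51), whereas Oprpn is far above the earlier arrays in replicate 1 (6.55) and less so in replicate 2 (4.16).

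Of the 11 fibrillar collagen genes measured, 3 were called lower and none higher. The 60-day arrays lay below all earlier arrays in 6 of the 11, against 4.94% of all genes, and these 6 were Col1a1, Col1a2, Col3a1, Col5a1, Col5a2 and Col5a3. The median difference of the 11 was -0.57, and it was -0.58 in 60-day replicate 1 and -0.48 in replicate 2. Type V collagen chains, which co-assemble with type I and set fibril diameter, differed by -0.68 (Col5a1, adjusted p = 0.0556), -0.64 (Col5a2, adjusted p = 0.128) and -0.66 (Col5a3, adjusted p = 0.128) and were not called (limma). Col5a1 read 10.11, 10.45 and 10.49 at 3 days, 10.49, 10.34 and 10.21 at 14 days and 9.59 and 9.74 at 60 days, and its second probe set differed by -0.93 with an adjusted p of 0.0112 over all 31042 probe sets (limma). The second probe set of Col5a2 differed by -0.82. The other fibrillar collagens include those of cartilage, and none of them lay below all earlier arrays. Col2a1 differed by -0.10 and Col11a1 by -0.17 in dim probe sets, whereas their brightest probe sets differed by -1.004 ± 1.41 (SE) and -0.645 ± 0.45 (SE), with errors too wide for a call. Col11a2 differed by -0.02, Col24a1 by 0.04 and Col27a1 by less than 0.01.

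**Figure D2:**
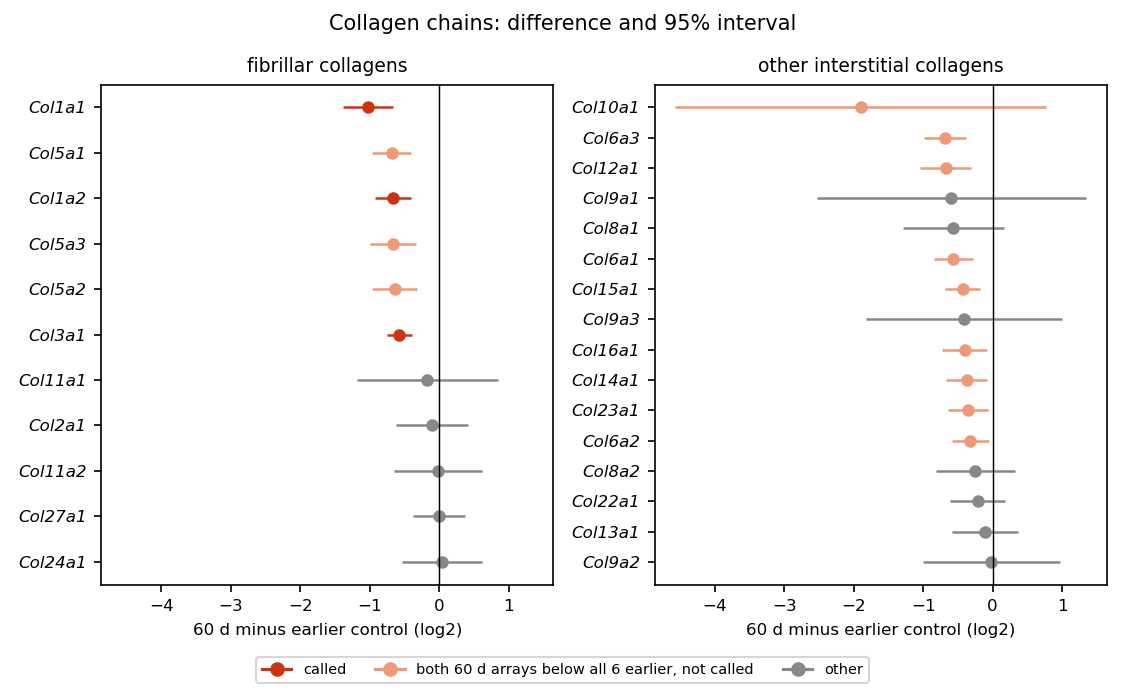
Difference between the 60-day and the earlier controls (log2, horizontal axis) with its 95% interval for each measured fibrillar collagen (left) and other interstitial collagen (right). The interval lies below 0 for the called genes Col1a1, Col1a2 and Col3a1 and for the type V chains, whereas Col10a1, at -1.90, has the widest interval.

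Over all 41 collagen chains measured, 37 had a difference below 0, against 46.5% of all genes. In 19 both 60-day arrays lay below every earlier array, whereas in 1 they lay above (4.94% and 7.96% of all genes). The 16 fibril-associated and other interstitial collagens all had negative differences, with a median of -0.41 and 9 without overlap, and none was called. Their median rested more on one array, at -0.60 in 60-day replicate 1 and -0.26 in replicate 2. Col6a3 and Col6a1, chains of the beaded-filament type VI collagen, differed by -0.69 (adjusted p = 0.0717) and -0.56 (adjusted p = 0.121), and Col15a1, which lies beside basement membranes, by -0.43 (adjusted p = 0.198, limma). Col10a1, the collagen of hypertrophic cartilage, had the most negative value of the list at -1.90, with an SE of 1.28.

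Genes for collagen synthesis, folding and cross-linking moved less than the chains. Of 24 measured, none was called, 22 were below 0, 7 were below all earlier arrays (4.94% of all genes) and the median was -0.21. The brightest, P4hb and Ppib, differed by -0.11 and -0.04. The smallest p belonged to Sparc, a collagen-binding glycoprotein, and to the cross-linking enzyme gene Loxl2 (-0.62, adjusted p = 0.363, limma). Sparc read 12.59, 12.70 and 12.51 at 3 days, 12.79, 12.50 and 12.45 at 14 days and 11.96 and 11.998 at 60 days (difference -0.61, adjusted p = 0.12, limma). The second probe set of Loxl2 differed by -0.27.

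Elastic fibre and microfibril genes had a median of -0.24 over 17 measured genes, of which 16 were below 0, 8 lay below all earlier arrays (4.94% of all genes) and none was called. Eln, the precursor of elastin, read between 10.44 and 11.12 in the earlier controls and 9.92 and 10.06 at 60 days, without overlap (difference -0.79, adjusted p = 0.183, limma). Fbn1, the main microfibril protein, differed by -0.56 (adjusted p = 0.114), and Ltbp4 and Mfap5 by -0.39 and -0.34. Proteoglycan genes had a median of -0.28 over 14 genes, with 6 below all earlier arrays. Vcan, a large hyaluronan-binding proteoglycan, differed by -0.77, and the small leucine-rich members Bgn, Lum and Dcn by -0.40, -0.27 and -0.20.

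All 20 matricellular and adhesive genes measured were below 0, with a median of -0.31 and 5 without overlap (4.94% of all genes), and none was called. Postn, a matrix protein that aids collagen cross-linking, differed by -0.60 (adjusted p = 0.133, limma), Thbs3 by -0.38, Fn1 by -0.44 and Spp1 by -0.51. Basement membrane genes had a median of -0.17 over 21 genes, with 6 below and 1 above all earlier arrays. Col4a5 was the closest to a call and read between 11.35 and 11.55 in the earlier controls and 10.70 and 10.86 at 60 days (difference -0.67, adjusted p = 0.0621, limma). Col4a1 and Nid1 differed by -0.55 and -0.43.

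Genes for hyaluronan synthesis, binding and turnover showed no shift, with a median of -0.02 over 12 genes and 1 below all earlier arrays. Cd44, a hyaluronan receptor, differed by -0.13, Lyve1 by -0.22, the synthase Has2 by -0.18 and Tnfaip6 by -0.49. Matrix proteases and their inhibitors had a median of -0.07 over 28 genes, with 9 below all earlier arrays (4.94% of all genes). Of the 28, 8 had a difference above 0, up to 0.89. Adamts15 and Adamts12, secreted metalloproteases, differed by -0.71 (adjusted p = 0.069) and -0.70 (adjusted p = 0.19, limma), Timp3 by -0.40 and Timp2 by -0.05. Among proteases named after their values were seen, Mmp2 and Mmp14 differed by -0.35 and -0.34, both with the 60-day pair below all earlier arrays. Each of the 9 matrix lists had a median below 0. The same held in 14-day control replicate 3 alone, with medians from -0.15 (elastic fibres) to -0.07 (hyaluronan). Both 60-day hyaluronan medians (-0.07 and -0.01) lay within the range of the earlier arrays. So did the protease median of 60-day replicate 1 (-0.13), whereas that of replicate 2 (-0.19) lay below it.

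Markers of the cell types in the pools were read beside these values, and their part in the result was not tested. Fibroblast and myofibroblast genes had a median of -0.16 over 20 genes, with 4 below all earlier arrays (4.94% of all genes). By array, the list median was -0.10 and -0.14 at 60 days, within the range of the earlier arrays (-0.19 to 0.14). Their summed signal on the linear scale, which the brightest genes dominate, was 44699 and 46806 in the 60-day arrays against 47396 to 58011 earlier. Vim and Mylk differed by -0.19 and -0.39. The summed signal of the fibrillar collagens was 17587 and 20148 against 27938 to 30628 earlier. Muscle genes were level, with a median of -0.02 over 32 genes and none without overlap, and Ckm and Acta1 differed by -0.02 and -0.04, Pygm and Myh4 by -0.52 and -0.48. Genes of developing and regenerating muscle had a median of 0.00 over 15 genes (Myl4 0.09, Myf6 -0.37, Tnnt2 0.50, Myod1 -0.47).

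Cartilage genes split the 60-day pair, with a median of -0.89 in replicate 1 and 0.40 in replicate 2, against -0.53 to 0.49 in the earlier arrays. Acan, the cartilage proteoglycan, read 6.79 and 8.53 at 60 days and Cnmd 6.26 and 8.99, both named after their values were seen, whereas Col1a1 read 10.57 and 10.51 in the same arrays. The brightest cartilage genes, Cytl1 and Chad, differed by -0.09 and -0.07 and Matn1 by -0.53.

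Pou2af1, a coactivator of B-lymphocyte transcription that plasma cells keep, rose most clearly among immune genes. It read 5.93, 5.83 and 5.64 at 3 days, 5.60, 5.56 and 5.56 at 14 days and 7.93 and 7.24 at 60 days. The earlier arrays lay close together (SD 0.16), and both 60-day arrays lay above all of them. The rise was 3.74-fold (1.90 ± 0.30 SE, limma, adjusted p = 0.0138, n = 2 and 6).

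Iglc1, an immunoglobulin lambda light chain constant region, read 7.14, 6.03 and 6.20 at 3 days, 6.10, 6.24 and 5.48 at 14 days and 8.37 and 8.50 at 60 days. The groups did not overlap, and 3-day replicate 1 was the highest of the earlier arrays. The rise was 4.72-fold (2.24 ± 0.42 SE, limma, adjusted p = 0.047, n = 2 and 6). Lambda constant regions resemble each other, and how far its probes also read other copies was not tested.

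Jchain and Mzb1, plasma cell genes for antibody joining and folding, were named after their values were seen and lay just past the threshold. Jchain read 10.71, 9.70 and 9.99 at 3 days, 9.49, 9.53 and 8.80 at 14 days and 12.31 and 12.11 at 60 days (2.51 ± 0.48 SE, limma, adjusted p = 0.052, n = 2 and 6). Mzb1 read between 6.52 and 7.72 in the earlier controls and 10.12 and 8.66 at 60 days (2.36 ± 0.47 SE, limma, adjusted p = 0.0528, n = 2 and 6). Both genes were above every earlier array in both 60-day pools.

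Many of the other lymphocyte genes were high in a single 60-day array. Over the 20 lymphocyte and antibody genes measured, 1 was called and 5 lay above all earlier arrays, against 7.96% of all genes, and the median was 0.85 in 60-day replicate 1 and 0.03 in replicate 2. The T-cell receptor component Cd3e read 9.24 and 7.78 at 60 days against 7.28 to 8.29 earlier, and the T-cell kinase Lck read 9.38 and 8.23 against 7.64 to 8.62. Among the B-cell genes Ms4a1 and Cd79b, the 60-day pair lay above all earlier arrays, with differences of 0.59 and 0.47. Cd3e, Lck, Ms4a1 and Cd79b were named after their values were seen, and none was called.

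Entpd8, an ectoenzyme that removes phosphates from extracellular nucleotides, read 6.31, 6.30 and 6.08 at 3 days, 6.26, 6.35 and 6.25 at 14 days and 6.95 and 7.40 at 60 days. The earlier arrays lay close together and the 60-day pair above them. The rise was 1.88-fold (0.91 ± 0.13 SE, limma, adjusted p = 0.00975, n = 2 and 6). In the list of purinergic receptors and nucleotide-hydrolysing ectoenzymes, 1 of 23 measured genes was called, 5 lay above and 2 below all earlier arrays (7.96% and 4.94% of all genes), and the median was 0.03. The 5 above were Entpd8, Entpd3 (0.38), Nt5e (0.27), Alpl (0.84) and the nucleotide receptor P2ry2 (0.58), the last 4 named after their values were seen.

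Grik2, a subunit of kainate-type glutamate receptors, read 6.26, 6.97 and 6.41 at 3 days, 6.90, 6.42 and 6.32 at 14 days and 7.67 and 8.13 at 60 days. The groups did not overlap. The rise was 2.56-fold (1.36 ± 0.24 SE, limma, adjusted p = 0.037, n = 2 and 6).

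Oprpn, which encodes a secreted precursor of opiorphin peptides, read 3.77, 3.28 and 3.48 at 3 days, 3.57, 3.63 and 3.63 at 14 days and 6.55 and 4.16 at 60 days. Both 60-day values were above the earlier ones, but replicate 1 carried most of the difference. The rise was 3.47-fold (1.80 ± 0.33 SE, limma, adjusted p = 0.0395, n = 2 and 6), and without replicate 1 the difference was 0.60. All 5 genes that rose were in the lowest 30% of genes by mean signal, where a filter on dim genes would remove them, whereas the 4 that fell were brighter than 88.3% of genes or more.

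No epithelial gene was called. Of 27 stratified epithelium and cornified envelope genes, 9 lay above all earlier arrays (7.96% of all genes), 2 were below 0 and the median was 0.30, with 0.36 in 60-day replicate 1 and 0.24 in replicate 2. The earlier arrays stood between -0.22 and 0.23, the highest being 3-day control replicate 2. The summed signal of the list was 103763 and 100719 at 60 days against 67500 to 99210 earlier. Pkp3, a desmosome plaque protein, read between 8.59 and 9.04 in the earlier controls and 9.41 and 9.34 at 60 days (difference 0.57, adjusted p = 0.087, limma). Grhl3, a regulator of epidermal differentiation, differed by 1.00 (adjusted p = 0.349), and the basal keratins Krt5 and Krt15 by 0.30 and 0.12. Krt13, the keratin of non-cornified mucosa, and the cross-linking enzyme Tgm1 differed by 0.88 and 0.79 and were named after their values were seen.

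The list of simple and secretory epithelium had a median of 0.06 over 31 genes, with 5 above and 1 below all earlier arrays (7.96% and 4.94% of all genes). Elf3, an epithelial transcription factor, read 10.78, 11.20 and 10.72 at 3 days, 10.99, 11.11 and 10.80 at 14 days and 11.87 and 11.55 at 60 days (difference 0.77, adjusted p = 0.0528, limma). Bpifb1, a secreted airway defence protein, differed by 1.14 (adjusted p = 0.251), whereas the brightest members Bpifa1 and Scgb3a1 differed by 0.04 and by less than 0.01. Krt19 and the mucin Muc5ac differed by 0.55 and 1.55 with the 60-day pair above all earlier arrays. Tff2, a mucus-stabilising peptide, was the member below them, at 12.22, 12.22 and 12.12 at 3 days, 10.69, 10.32 and 11.21 at 14 days and 9.31 and 10.18 at 60 days (difference -1.72, adjusted p = 0.552, limma). Krt19, Muc5ac and Tff2 were not called and were named after their values were seen.

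Genes of motile cilia were high in a single array. All 14 had positive differences, and 4 lay above all earlier arrays (7.96% of all genes). In 11 the unadjusted p was below 0.05 (limma), against 5.13% of all genes that were higher at this threshold. The median was 0.08 in 60-day replicate 1 but 1.30 in replicate 2. The summed signal was 18225 and 28625 at 60 days, against 16790 to 20301 in the earlier arrays. Tekt1 and Tekt2, tubulin-associated proteins of the axoneme, read 9.10 and 10.47 and 7.68 and 8.89 in the 60-day pair, with earlier values up to 9.05 and 7.52. Foxj1, the transcription factor of ciliated cells, and Rsph1, named after their values were seen, read 8.91 and 10.02 and 7.85 and 9.41. The brightest members, Tubb4b and Tppp3, differed by 0.14 and 0.08.

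Neutrophil and acute inflammation genes leaned on the other 60-day array, with a median of 0.64 in replicate 1 and 0.05 in replicate 2, while 3-day control replicate 2 stood at 0.84. The summed signal was 10920 and 5253 at 60 days against 3939 to 9859 earlier. S100a9 and S100a8, calcium-binding proteins abundant in neutrophils, read 10.43 and 7.80 and 8.77 and 6.35. Csf3r and Il1b read 6.98 and 5.32 and 10.55 and 7.77. Il1a, Ptgs2 and Cxcl1 lay above all earlier arrays in both, with differences of 1.47 (adjusted p = 0.315), 1.48 (adjusted p = 0.334) and 1.89, whereas the chemokines Ccl2 and Ccl3 differed by -0.10 and -0.25. S100a8, S100a9, Csf3r, Il1b and Cxcl1 were named after their values were seen, and none of the 20 genes was called.

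Mast cell genes had the lowest median of all lists, -0.92 over 15 genes, and none was called. The 60-day pair stood at -0.59 and -0.87, the earlier arrays between -0.54 (3-day replicate 3) and 0.85 (14-day replicate 1). Tpsb2, a mast cell tryptase, read 9.21, 9.08 and 8.76 at 3 days, 10.42, 9.69 and 9.41 at 14 days and 8.17 and 8.21 at 60 days (difference -1.24, adjusted p = 0.315, limma). Cpa3 and Mcpt1, mast cell proteases, differed by -0.96 and -0.92, and Mcpt10 and Gata2, named after their values were seen, by -1.24 and -0.56. Hpgds, a prostaglandin D2 synthase, went the other way at 1.07.

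Macrophage genes had a median of -0.09 over 17 genes, none of them without overlap (Gpnmb -0.20, C1qa 0.19, Cd163 0.42, Cd5l 0.43). MHC class II genes had a median of 0.28 over 12 genes, with 0.52 in 60-day replicate 1 and -0.07 in replicate 2 (Cd74 0.31, RT1-Da 0.38, RT1-Db1 0.58). Interferon-response genes had a median of -0.04 over 28 genes, and Mx1 and Irf1 differed by -0.66 and 0.43, Psmb9 by 0.26 and Ifi27 by -0.01. Of 16 complement genes the median was 0.00, and Cfi and C3 lay above all earlier arrays with differences of 0.85 (adjusted p = 0.0941, limma) and 0.83, whereas Clu and C1s differed by -0.13 and -0.10.

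**Figure D3:**
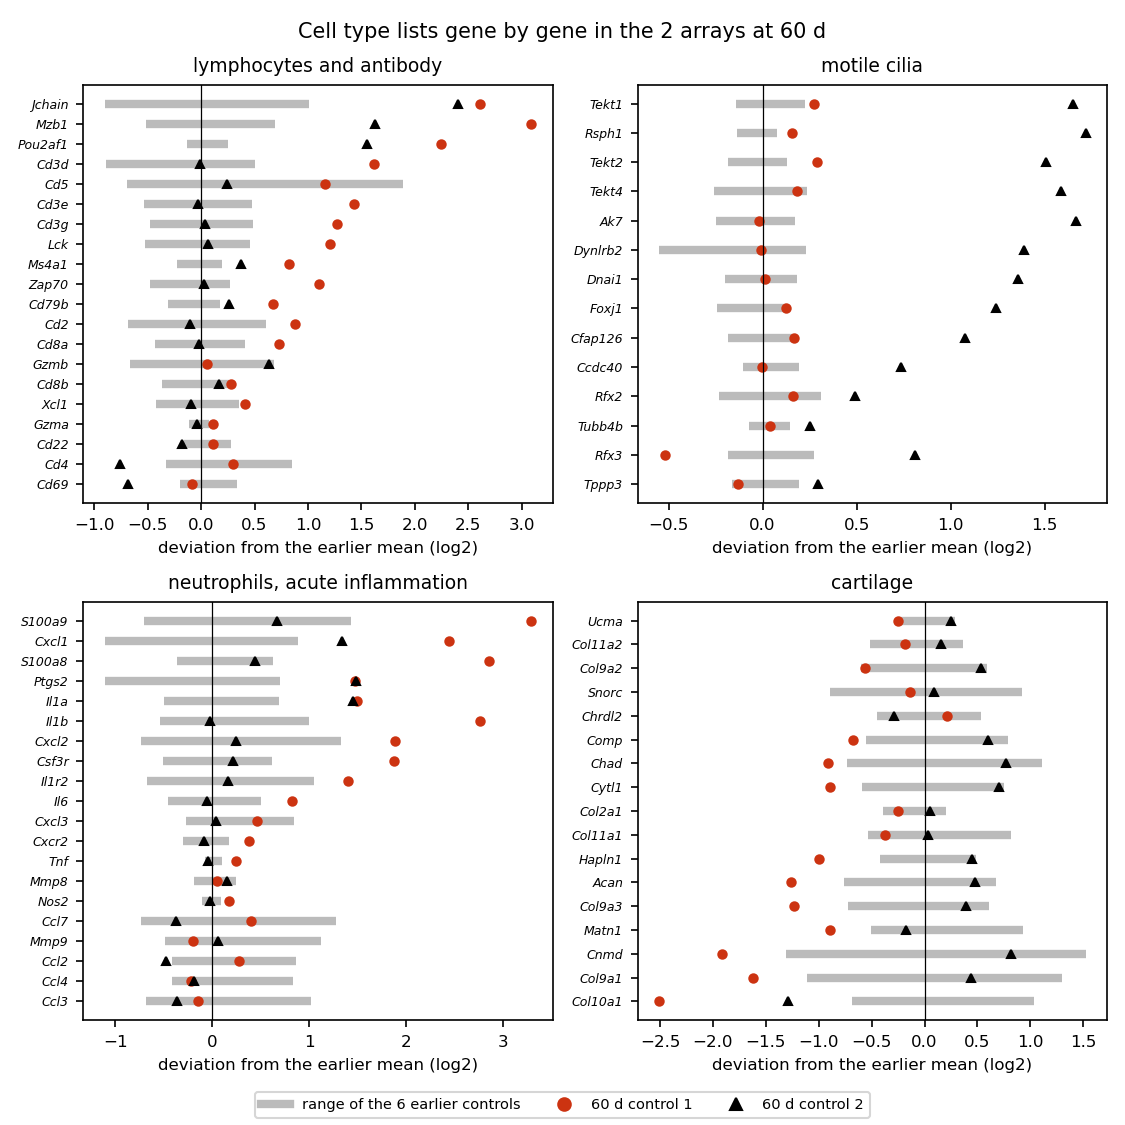
Deviation of each 60-day control array (circle replicate 1, triangle replicate 2) from the mean of the earlier controls (log2, horizontal axis) for each gene of 4 lists, over the range of the 6 earlier arrays (grey bar). Jchain, Mzb1 and Pou2af1 lie to the right of the bar in both arrays, the cilia genes in replicate 2 and many neutrophil genes in replicate 1, and many cartilage genes of replicate 1 lie to its left.

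Clock genes were read because the time of day at harvest can differ between groups. In the core clock, Bmal1, Clock and Npas2 proteins activate transcription, Per and Cry proteins repress it, and Nr1d1 and Rora act on Bmal1 through ROR response elements. Of the 8 activators and ROR-controlled genes measured, 5 lay below all earlier arrays and 1 above (4.94% and 7.96% of all genes), the median was -0.41, and none was called. Npas2 read 8.66, 9.14 and 9.09 at 3 days, 8.74, 8.64 and 8.58 at 14 days and 7.77 and 8.21 at 60 days (difference -0.82, adjusted p = 0.117, limma). Nfil3 and Rora differed by -0.79 (adjusted p = 0.198) and -0.56 (adjusted p = 0.229), with the second probe set of Rora at -0.04, Clock by -0.32, Cry1 by -0.14, Gys2 by -0.12 and Dbndd2 by 0.22.

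Bmal1 read 8.03, 8.91 and 8.73 at 3 days, 8.30, 8.32 and 8.07 at 14 days and 8.0 and 7.80 at 60 days, below all earlier values by a narrow margin in replicate 1 (difference -0.49, adjusted p = 0.51, limma). Its promoter is shown for the element through which the clock loop acts: in the 250 bases before the RefSeq start (GRCr8, chr1:176766078-176766327, plus strand) capitals mark TAGGTCA, a ROR response element, and CCAAT boxes on the minus strand.

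Bmal1: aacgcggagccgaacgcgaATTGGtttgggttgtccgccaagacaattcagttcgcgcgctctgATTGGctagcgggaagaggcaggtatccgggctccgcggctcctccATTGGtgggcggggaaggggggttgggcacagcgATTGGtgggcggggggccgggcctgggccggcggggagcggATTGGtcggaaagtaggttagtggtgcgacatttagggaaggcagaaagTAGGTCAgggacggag

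TAGGTCA lies at -16 to -10 and occurs in 2.26% of the 33469 windows on either strand. Only these exact letters were searched, so ROR elements with other letters are not marked. The match is a description of the letters and not of a bound factor.

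Of the 14 clock repressors and output genes measured, 1 lay above and 1 below all earlier arrays (7.96% and 4.94% of all genes) and the median was 0.10. Per2 read 9.67, 9.31 and 9.23 at 3 days, 9.45, 9.56 and 9.55 at 14 days and 9.85 and 10.13 at 60 days (difference 0.53, adjusted p = 0.344, limma), and its second probe set differed by 0.05. Dbp and Nr1d1, which swing widely over the day, read 7.65 and 8.01 in 3-day control replicate 2. The other 5 earlier arrays read at least 9.53 and 9.67. That replicate also stood apart in the muscle list, and the cause of its low values was not tested. The 60-day differences of Dbp and Nr1d1 were 0.87 and 0.54. Nr1d2, Cry2 and Tef differed by 0.26, 0.22 and 0.24, and Bhlhe40, Bhlhe41 and Usp2 by 0.08, 0.11 and 0.09. Hlf differed by -0.09, but its brightest probe set by 0.18. Wee1 and Tsc22d3 differed by -0.31 and -0.32, Per3 by 0.01 and Per1 by less than 0.01.

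No gene was called in the TGF-beta, IGF, imprinted, cell division, DNA replication and senescence lists. TGF-beta and BMP signalling genes had a median of -0.09 over 23 genes, with the antagonists going opposite ways: Fst, which binds activin, differed by -0.51 (adjusted p = 0.159) and Nog, which binds BMPs, by 0.86 (adjusted p = 0.12, limma), Id1 by 0.34 and Tgfbr1 by -0.20. In the IGF axis, with a median of -0.09 over 20 genes, Stc1 differed by -0.64, Igfbp3 by -0.48, Igfbp2 by 0.25 and Igfbp7 by -0.18. The imprinted genes of postnatal growth had a median of -0.18 over 16 genes, and Ndn and Sgce read below all earlier arrays in both 60-day pools (differences -0.49 and -0.48, adjusted p = 0.197 and 0.347, limma), whereas H19 differed by less than 0.01. Cell division genes had a median of 0.24 over 25 genes with 1 below 0. The 60-day pair stood at 0.27 and 0.22, within the range of the earlier arrays (-0.22 to 0.39). Kif23 differed by 0.66 and its dimmer probe set by 0.19, Racgap1 by 0.32 and Aurkb by 0.24. DNA replication genes had a median of 0.13 over 23 (Mcm6 0.37, Mcm4 0.19, Mcm7 0.14, Pcna -0.02), and cell cycle arrest and senescence genes 0.12 over 15 (Gdf15 0.39, Ccng1 -0.15).

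The remaining lists described other tissues, stress and metabolism. Adipocyte genes had a median of 0.01 over 20 genes (Dgat2 0.61, Pparg -0.36, Lpl -0.30, Fabp4 0.04), endothelial and lymphatic genes of -0.03 over 21 (Vwf 0.40, Kdr -0.25, Pdpn 0.20) and Schwann cell genes of -0.09 over 12 (Mal 0.68, Ngfr 0.62, Pmp22 -0.26). Thyroid and parathyroid genes had a median of -0.08 over 12 (Slc26a4 0.91, Casr -0.26, Duox2 0.18, Nkx2-1 -0.01) and red blood cell genes of -0.07 over 6 (Alas2 -0.39, Hbb -0.22, Slc4a1 -0.11). Of 21 immediate early genes, 6 lay above all earlier arrays (7.96% of all genes) with a median of 0.02 (Ier3 0.68, Fosl2 0.40, Jun -0.12, Dusp1 -0.05). Detoxification genes had a median of -0.04 over 23, in which the alcohol dehydrogenase Adh7 differed by 0.92 and the cytochrome P450 genes Cyp2a3 and Cyp2f4 by -1.28 and -0.40, while Aldh1a1 differed by -0.08.

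Antioxidant genes had a median of 0.12 over 21 (Gpx2 0.46, Gclc 0.38, Txn1 0.17, Gpx1 -0.01). Of these, 4 lay above and 1 below all earlier arrays (7.96% and 4.94% of all genes). The lists of endoplasmic reticulum folding (-0.06 over 24; Xbp1 -0.17, Canx -0.17, Dnajb11 0.16, Hspa5 -0.06), chaperones (0.03 over 16; Serpinh1 -0.22, Hsp90ab1 -0.16, Hspd1 -0.15, Cryab 0.04), sterol synthesis (0.03 over 21; Mvd 0.44, Dhcr7 0.32, Fdps 0.11, Acly -0.08), respiratory chain (-0.04 over 27; Sdha -0.20, Uqcrfs1 -0.18, Atp5f1b -0.10, Atp5mc3 -0.08) and ribosomal proteins (0.05 over 24; Rpl30 0.17, Rps24 0.15, Rps23 0.08, Rps6 0.01) had medians near that of all genes. Of the 45 lists, 3 held a called gene.

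**Figure D4:**
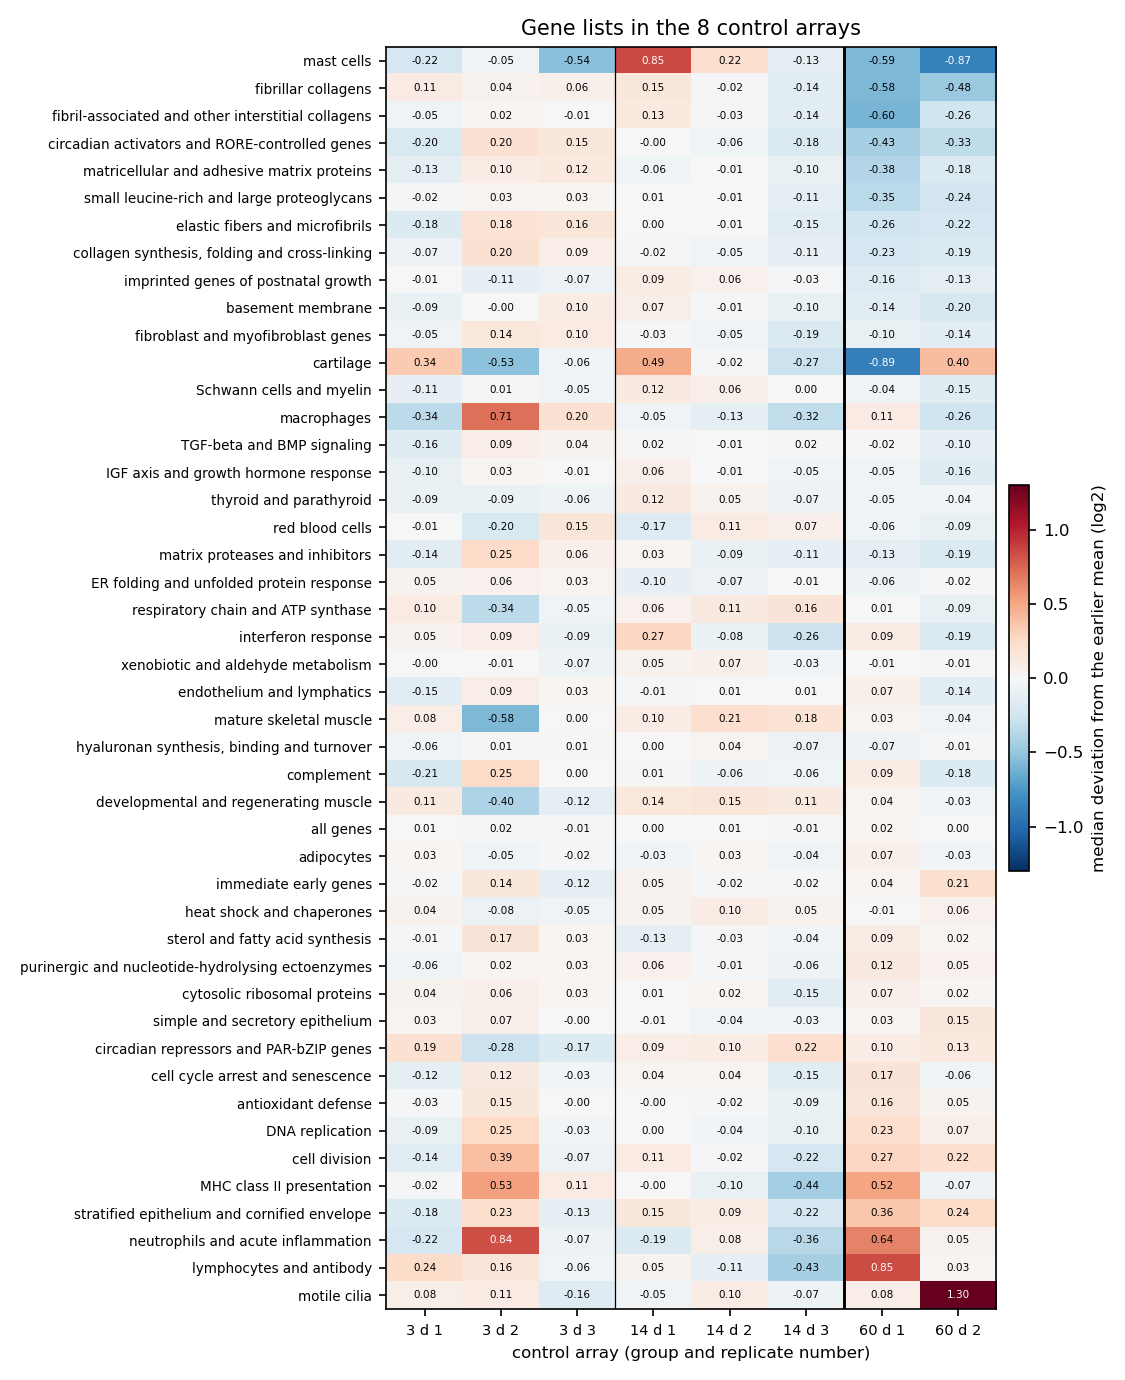
Median deviation of the genes of each list from the mean of the earlier controls (log2, colour and printed value) in each of the 8 control arrays (horizontal axis), with lists ordered by their 60-day difference. The fibrillar collagen row is at -0.58 and -0.48 in the 60-day arrays and between -0.14 and 0.15 in the others, whereas motile cilia stand at 1.30 in 60-day replicate 2 alone.

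Jchain was the gene nearest to a call. After it (adjusted p = 0.052), the next 5 genes by p had an adjusted p of 0.0528 (limma): the epithelial protease gene St14 (0.54), Elf3, the sulfotransferase gene Chst5 (1.20), Efhd1 (-0.75) and Mzb1. They were followed by the protease gene Prss30 (2.14) and Col5a1 at 0.0556, by the chemokine receptor gene Ccr6 (0.93) at 0.058 and by Ggt1 (1.56), a membrane enzyme of glutathione breakdown, at 0.0618. Among all 31042 probe sets, 12 were called (0.0387%), 8 higher (0.0258%) and 4 lower (0.0129%), and these include Prss30, Chst5 and the second Col5a1 probe set. The lognormal-normal model called 63 genes (0.443%) at a posterior probability above 0.95, 34 higher and 29 lower, and 8 of the 9 genes were among them, the exception being Oprpn. Its calls include 5 of the 11 fibrillar collagens, all lower.

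The earlier controls were compared with each other in the same model. Between 14-day and 3-day controls no gene was called (limma), and 688 (4.84%) had an unadjusted p below 0.05. Weighting the arrays by their estimated quality gave 1704 calls in this comparison, with weights from 0.474 to 6.55 among the 6 arrays. The 9 called genes had differences between -0.52 (Iglc1) and 0.14 (Col1a1) from 3 to 14 days. The fibrillar collagens had a median of 0.00 and the mast cell genes of 0.55 in that comparison.

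Injured mucosa at 14 and 60 days PI has the same ages as the controls and shares no array with them, but healing and age cannot be told apart in it. There 298 genes (2.1%) were called between 60 and 14 days PI, 36 higher (0.253%) and 262 lower (1.84%). Each of the 9 genes had a difference in the direction seen in uninjured mucosa, and 5 were called. Col1a1 went from 12.90 ± 0.27 to 11.04 ± 0.21 (SD, n = 5 each), Col1a2 from 13.67 to 12.49, Col3a1 from 14.15 to 13.29 and Ccdc80 from 11.75 to 10.77. Pou2af1 went from 6.29 ± 0.39 to 7.59 ± 0.62 (SD, n = 5 each), a difference of 1.31 (limma, adjusted p = 0.00175). Those that were not called were Iglc1 (1.15, adjusted p = 0.0772), Grik2 (0.60, adjusted p = 0.123), Entpd8 (0.22) and Oprpn (0.13, limma). Jchain went from 11.15 to 11.998 (difference 0.84, adjusted p = 0.378, limma).

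At 60 days the injured and the uninjured pools were compared directly. Pou2af1 averaged 7.59 in both, Jchain 11.998 in injured and 12.21 in uninjured, and Col3a1 13.29 and 13.11. Col1a1 and Ccdc80 were 0.50 and 0.42 higher in injured mucosa, and Iglc1 and Grik2 had differences of -0.52 and -0.38, none of them called. Oprpn was called: the 5 injured arrays read between 3.29 and 3.69, and it was lower than in uninjured mucosa (limma, adjusted p = 0.0367). Replicate 1 of the 60-day controls carried most of this difference. Oprpn was 1 of 7 genes (0.0492%) called between injured and uninjured mucosa at 60 days. Npas2 and Per2 were also among the 7, at 1.21 higher (adjusted p = 0.0167) and 1.02 lower (difference -1.02, adjusted p = 0.0218, limma) in the injured arrays. Both groups were of the same age but differ by injury, and the cause of these clock gene differences was not tested.

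The change between 14 and 60 days was tested for a difference between uninjured and injured mucosa, which called 11 genes (0.0774%) and none of the 9. Col5a1 was among the 11, since it differed by less in uninjured (10.35 to 9.67) than in injured mucosa (11.42 to 9.55), with a difference of the changes of 1.19 (limma, adjusted p = 0.00984). For Postn the means went from 11.06 to 10.54 and from 12.33 to 10.46, a difference of 1.36 (limma, adjusted p = 0.00471). For Myh3, an embryonic muscle myosin named after its values were seen, they went from 6.29 to 6.08 and from 10.12 to 7.26, a difference of 2.66 (limma, adjusted p = 0.00126). In each of these the injured arrays started higher at 14 days.

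**Figure D5:**
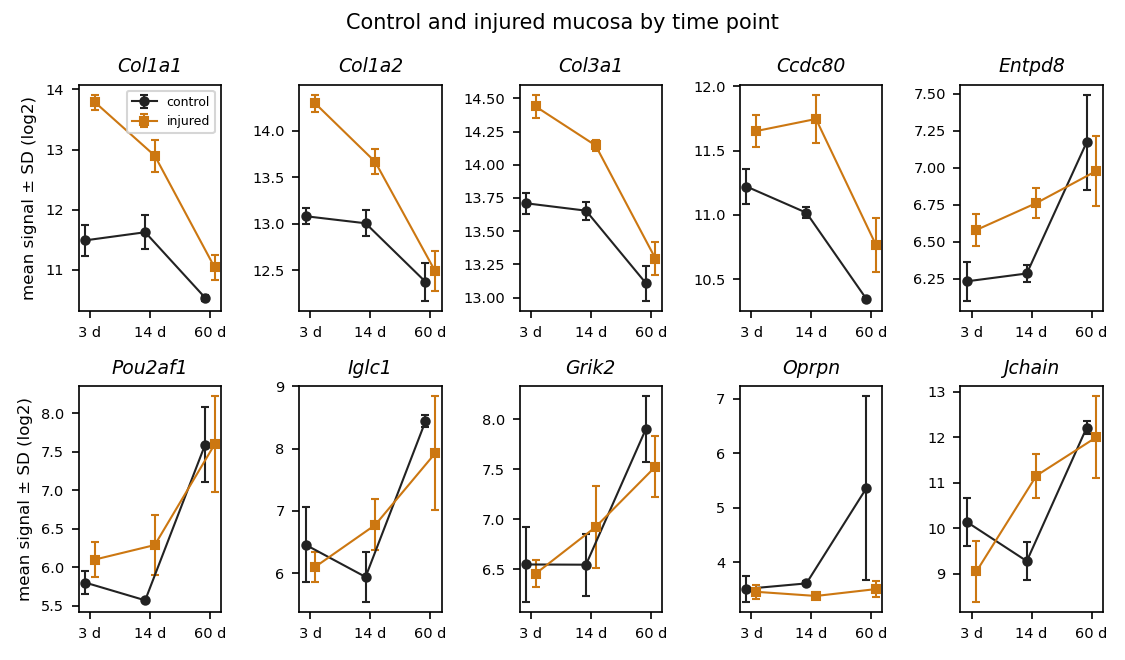
Mean signal ± SD (log2) by time point in control (circles; 3, 3 and 2 arrays) and injured mucosa (squares; 5 arrays each) for the 9 called genes and Jchain. Col1a1, Col1a2, Col3a1 and Ccdc80 are low in both at 60 days and Pou2af1 is at 7.59 in both. The Oprpn mean is raised only in 60-day control mucosa, where replicate 1 carries most of the difference.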

How the data were processed

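RNA of rat vocal fold mucosa was hybridised to 1-colour Affymetrix arrays. The deposited table holds log2 signals that the authors made with robust multi-array average (RMA, affy; versions not given in the sources used here), with 31099 probe sets in 36 arrays. Sorted values differ between arrays by at most 0.03, so depth has no meaning here and the number of arrays limits the precision. The 57 control probe sets were left out. Of the 31042 others, 20826 carry 1 gene symbol, 436 several and 9780 none, and symbols were updated through RefSeq (20758 by gene number, 2 by accession). Each of the 14217 genes is represented by the probe set with the median mean signal of its probe sets.

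Differences were fitted with limma 3.58.1 in R 4.3.3 in 1 model of the 6 mucosa groups (23 arrays, 17 residual degrees of freedom), as the 60-day control mean minus the mean of the 3-day and 14-day control means. P-values are two-sided and adjusted by Benjamini-Hochberg over all genes. A lognormal-normal model written anew after the study's methods was the alternative tool. Both were tested on simulated data: of 100 genes changed by 1 on the log2 scale in the 60-day against earlier comparison (14217 genes), limma called 89 and the lognormal-normal model 82, and 12 and 7 unchanged genes were called beside them and another 100 genes changed by 2. The simulated noise was independent between arrays and equally wide in each, whereas some of the real arrays deviated together. These counts therefore describe the simulation and not the error rate in the real arrays. Tables and plots were made with Python 3.11.15 and matplotlib 3.10.9.

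Named are all called genes, then up to 4 called members of each of 45 gene lists or, without a call, the 2 brightest and the 2 with the smallest p, and every fibrillar collagen and clock gene. The members and lists were chosen with earlier results of these data known. Deviations of control arrays with the same replicate number correlated with r between -0.191 and 0.348, positive for replicate 3 and of mixed sign for the others, so the numbers were not taken as pairs. Alternatives changed the model, the weights, the probe set rule, the scaling, the filter and the arrays left out.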

Additional observations from a re-analysis of the deposited data

Results flagged for a closer look

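Where sets of values are independent, chance puts 1 array far from the rest in about 1 in 20. The sets here were read on the same arrays, so that share is no measure for them. In 17 of 240 sets of 5 or 6 values (7.08%), 1 array lay far from the rest of its group. Of these, 11 were in 3-day control replicate 2, which was low in the muscle genes Acta1 (13.793) and Ckm (13.752), the chaperone gene Cryab (12.796), the ATP synthase gene Atp5mc3 (13.459) and the clock genes Dbp (7.65) and Nr1d1 (8.008), and high in Gpx1 (13.914), Il1b (8.794), Mcm4 (9.642), Pcna (12.091) and Prss30 (9.195). The 14-day control replicate 3 was high in Hspa5 (13.121) and Lum (13.306) and low in Rps23 (13.849) and Rps24 (13.698). Nt5e was low in 3-day control replicate 1 (10.197), and Entpd8 was high in 14-day PI replicate 2 (6.943).

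The change between 14 and 60 days differed between uninjured and injured mucosa, by limma's test of the difference itself, for Col5a1 (1.19), Postn (1.36) and Myh3 (2.66) among the genes named.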

How the results depend on the processing

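The 9 calls (5 higher, 4 lower) changed in number with the settings. They became 1 (1 higher, 0 lower) with the 8 control arrays alone in 2 or 3 groups, 330 (224 and 106) with array weights, 63 (34 and 29) in the lognormal-normal model, 61 (35 and 26) without the 3 arrays that deviated together, 18 (11 and 7) with the mean of probe sets, 16 (11 higher) with the brightest probe set, 15 (9 higher) after centring, 3 (0 higher) without the dimmest 30% of genes and 3 (1 and 2) against the 3-day controls alone. Over all probe sets 8 were higher. With 1 array left out there were 4 to 48 calls, 2 to 29 higher and 0 to 19 lower. Over the alternatives, Pou2af1 remained called in 34 of 36, Col3a1 in 34 of 37, Entpd8 in 33 of 36, Col1a1 in 31 of 37 and Ccdc80 in 29 of 37, whereas Grik2 did in 20, Iglc1 in 19 and Oprpn in 18 of 36 and Col1a2 in 16 of 37. The 5 genes that rose have 36 alternatives because the filter on the dimmest 30% of genes removed them, and this loss is not counted. No called gene changed direction. The injured arrays left out singly, the test over all probe sets and the alternatives for the list medians were chosen after seeing the data. Of the 222 named genes, 48 that were not called changed sign in some alternative.

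With the replicate number as a block, 5 genes were called, 1 of them lower, and 3 of the 5 were among the 9. The difference of the changes then called 4. The numbers were not taken as pairs, so this block was not read as a paired analysis. With so few arrays per group, the correlations cannot settle whether the numbers mark shared processing.

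In the other comparisons, array weights gave 1704 calls between 14 and 3 days, 830 in injured mucosa and 65 for the difference of the changes. Without the 3 arrays that deviated together, injured mucosa gave 527. Centring gave 6 for the difference, and leaving out 1 array 3 to 41, 216 to 371 in injured mucosa and 0 between 14 and 3 days. The lognormal-normal model was not run for these. The cause of these changes was not tested. With 2 arrays at 60 days, list medians could rest on 1 array: without replicate 1 or 2, motile cilia had medians of 1.30 and 0.08, lymphocyte genes of 0.03 and 0.85 and cartilage genes of 0.40 and -0.89.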
